A study of Mus musculus with 43 samples.

Results

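The 10 genes of the retinal vascular endothelium and the blood-retinal barrier examined here, *Cldn5*, *Cdh5*, *Pecam1*, *Vwf*, *Slc2a1*, *Mfsd2a*, *Abcb1a*, *Slco1c1*, *Plvap* and *Ocln*, were followed across 43 RNA-seq libraries of laser-injured mouse retina. The genes were taken by symbol, each as the Ensembl mouse gene that bears it, and are 10 of the 54532 genes in the table of read counts. Each library was a pool of 2 retinas from different C57BL/6J mice of 1 group, lasered at 9 weeks of age to induce choroidal neovascularization (CNV), a model in which burns through Bruch's membrane let choroidal vessels grow under the retina. The 12 groups were males and females, controls (CTR) or mice given short-chain fatty acids (SCFA), taken 3, 7 or 14 days after the laser (dpl). The drinking water of the SCFA groups held acetate at 67.5 mM, propionate at 40 mM and butyrate at 25 mM, begun before the laser and kept up until the retinas were taken. The labels' g/L values for propionate and butyrate do not match these mM values, so those doses are uncertain. Every mouse was lasered, and no retina without a lesion was analysed here. Groups held 3 to 5 libraries. At 3 dpl there were 4 CTR and 3 SCFA libraries of males and 3 and 5 of females, at 7 dpl 3 and 5 of males and 3 and 4 of females, and at 14 dpl 3 and 3 of males and 3 and 4 of females.

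Vessels of the inner retina are lined by endothelial cells joined by tight junctions, and together with the tight junctions of the retinal pigment epithelium they form the blood-retinal barrier. Such endothelium moves nutrients by dedicated carriers, returns drugs to the blood by efflux pumps and keeps transport by vesicles low. Choroidal vessels differ in that their endothelium is fenestrated, and CNV brings vessels of that origin next to the neural retina. Junctions are represented by *Cldn5* (claudin-5, the main claudin of barrier endothelium), *Ocln* (occludin, a tight junction protein of endothelium and epithelium), *Cdh5* (VE-cadherin of adherens junctions) and *Pecam1* (the adhesion molecule CD31). Carriers and pumps are *Slc2a1* (the glucose transporter GLUT1), *Mfsd2a* (a lysolipid carrier that limits vesicular transport), *Abcb1a* (P-glycoprotein, an efflux pump) and *Slco1c1* (a carrier of thyroid hormone and organic anions). *Plvap* encodes the protein of the diaphragms of fenestrae and vesicles and is typical of permeable endothelium, and *Vwf* encodes von Willebrand factor, a clotting protein stored in endothelial granules and in platelets.

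On GRCm38, *Plvap* lies at chr8:71497765-71511752 (minus strand), *Vwf* at chr6:125546774-125686679 (plus strand), *Slco1c1* at chr6:141524368-141570177 (plus strand) and *Cldn5* at chr16:18776847-18778262 (plus strand). *Cdh5* lies at chr8:104101625-104144511 (plus strand), *Pecam1* at chr11:106654217-106750628 (minus strand) and *Ocln* at chr13:100496507-100552718 (minus strand). *Slc2a1* lies at chr4:119108711-119137983 (plus strand), *Mfsd2a* at chr4:122946850-122961188 (minus strand) and *Abcb1a* at chr5:8660077-8748575 (plus strand). The reference promoters (RefSeq, GRCm38.p6, 250 bases before to 50 after the RefSeq start of the gene) held an entry for 6 of the 10 genes. For *Abcb1a* the RefSeq start lies far upstream of the gene start given above, so its window at chr5:8566841-8567140 is not next to that start. The promoter of *Slco1c1* is shown because it is the only gene with an entry among those that differed with SCFA below. That of *Cldn5* is shown because this gene encodes the main claudin of barrier endothelium. The *Cldn5* window holds none of the motifs searched, and neither does that of *Slc2a1*. Capitals mark matches, on either strand, to GGAAG, the core of ETS factor sites, beside which ACAAT (SOX) and CTTTGA (TCF/LEF) were searched; adjacent matches run together in 1 block of capitals.
Slco1c1, chr6:141524104-141524403, plus strand: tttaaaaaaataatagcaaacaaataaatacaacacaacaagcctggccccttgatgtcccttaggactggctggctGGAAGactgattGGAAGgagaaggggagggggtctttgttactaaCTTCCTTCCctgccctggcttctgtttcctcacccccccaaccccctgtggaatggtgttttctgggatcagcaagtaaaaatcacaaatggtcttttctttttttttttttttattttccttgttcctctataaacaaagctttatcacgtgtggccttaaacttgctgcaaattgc
Cldn5, chr16:18776597-18776896, plus strand: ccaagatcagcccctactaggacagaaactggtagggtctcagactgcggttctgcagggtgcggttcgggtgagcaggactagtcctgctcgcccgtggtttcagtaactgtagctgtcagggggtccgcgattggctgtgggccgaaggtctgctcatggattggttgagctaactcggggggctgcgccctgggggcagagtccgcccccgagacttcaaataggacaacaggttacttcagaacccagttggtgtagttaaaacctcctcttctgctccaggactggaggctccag
The *Slco1c1* window held 4 matches to GGAAG and none to the other motifs. Over the 6 genes, GGAAG was found in 3 and CTTTGA in 2, both including *Abcb1a*, and ACAAT in 0, against 71.4%, 16.0% and 31% of 32851 mouse promoters of the same length. A match is a string of letters and was not tested as a binding site.

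Totals ran from 14826957 to 21507527 counts per library (median 17683615), and all 10 genes passed the filter on low counts, with 28 counts (*Mfsd2a*) as the lowest of any gene in any library. Values below are CPM, the count of a gene relative to the TMM-scaled total of its library. The columns of the table fall into a run of 31 libraries named in order of group, followed by a second run of 12, which holds 4 CTR libraries of 2 groups and 8 SCFA libraries of 5 groups. The labels do not say what sets these runs apart; mitochondrial mRNAs took 4.71% to 14.8% of the counts in the first and 2.50% to 4.57% in the second. Summed markers of pigment epithelium were over 1.5 times their median (1053 CPM) in 5 libraries, female SCFA replicates 1, 2 and 3 at 3 dpl and male SCFA replicates 1 and 3 at 7 dpl, and the same 5 had summed Müller glia markers over 1.5 times their median. Both lists hold *Rlbp1*, with a median of 569.7 CPM. Without it, pigment epithelium sums were over 1.5 times their median in 6 libraries, the same 3 female SCFA libraries and 3 CTR libraries. Müller glia sums then were in 3, female SCFA replicate 1 and male SCFA replicates 1 and 3. *Trpm1*, still in the pigment epithelium sums, had a median of 139.8 CPM and was at 99.2 CPM in its lowest library. *Rpe65* of the same list fell to 4.07 CPM, and the cell source of *Trpm1* here was not tested. Summed oligodendrocyte markers were over 1.5 times their median in 5 libraries, 4 of them of males at 7 dpl. The library labelled female control replicate 2 at 7 dpl held 784 counts of Y-linked genes, against 0 in the other 21 female libraries and at least 2229 in males. All 22 genes of a list of endothelial identity passed the filter. Over the 43 libraries, centred on each run, the mean log2 level of that list had a Pearson correlation of 0.746 with *Vwf*, 0.281 with *Slco1c1* and 0.24 with *Plvap*, given as a description.

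Per kilobase of transcript, *Slc2a1* was the most abundant of the 10, at 94.5 ± 11.3 CPM per kb (SD, n = 43 libraries), and *Cldn5* the next, at 13.7 ± 3.56. *Slco1c1* (4.52 ± 1.42), *Plvap* (3.78 ± 0.938) and *Pecam1* (3.32 ± 0.633) followed, then *Abcb1a* (2.41 ± 0.798), *Mfsd2a* (1.73 ± 0.513), *Cdh5* (1.41 ± 0.372), *Vwf* (1.19 ± 0.524) and *Ocln* (1.03 ± 0.252). *Slc2a1* exceeded *Cldn5*, and *Cldn5* exceeded *Slco1c1*, in 43 of 43 libraries. *Pecam1* exceeded *Abcb1a* in 42, but *Slco1c1* exceeded *Plvap* in 28, *Plvap* exceeded *Pecam1* in 26 and *Vwf* exceeded *Ocln* in 27, so that these neighbours were not ordered alike in all libraries. GLUT1 is also made by pigment epithelium, glia and neurons of the retina, and the counts do not tell these sources apart. The spread over libraries was narrowest for *Slc2a1*, with a coefficient of variation of 12%, and widest for *Vwf*, with 44.2%.

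**Figure D1:**
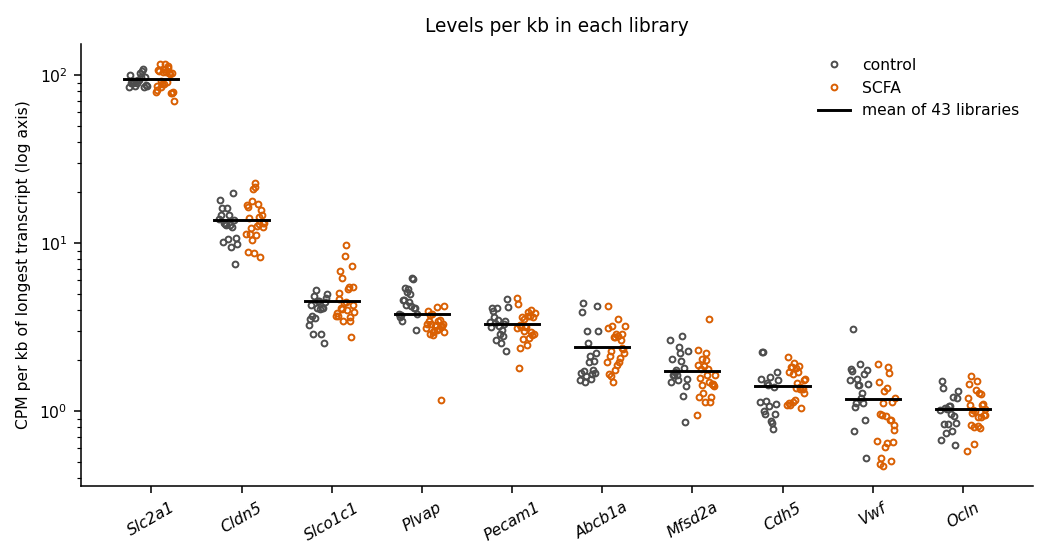
Level of each gene in CPM per kb of its longest transcript (log axis), with 1 point per library. *Slc2a1* stands apart from the rest with a mean of 94.5, and the ranges of all other neighbours in the order overlap.

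The run of columns was a term in every comparison, since libraries of both runs occur in the same groups. Between the runs, 6 of the 10 genes were called (edgeR's quasi-likelihood test, Benjamini-Hochberg adjusted p under 0.1), where 52.0% of all 18197 genes tested were. On the log2 scale, *Vwf* was higher in the second run by 0.82 ± 0.15 (SE), adjusted p = 4.92e-05, *Abcb1a* by 0.68 ± 0.11 (SE), adjusted p = 6.39e-06, and *Pecam1* by 0.43 ± 0.08 (SE), adjusted p = 6.94e-05 in edgeR's test. *Cdh5* (0.41 ± 0.12 SE) and *Mfsd2a* (0.30 ± 0.14 SE) were higher as well, and *Slc2a1* was lower (-0.19 ± 0.06 SE). *Plvap* differed by 0.07 ± 0.11 (SE) and was not called (edgeR adjusted p = 0.629). For *Abcb1a*, the lowest, median and highest first-run CTR libraries were at 7.46, 8.65 and 15 CPM (n = 15), and the second-run CTR libraries at 15, 20.2 and 22.1 CPM (n = 4). Within the list of endothelial identity, 14 of 22 genes were higher in the second run and 1 lower.

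**Figure D2:**
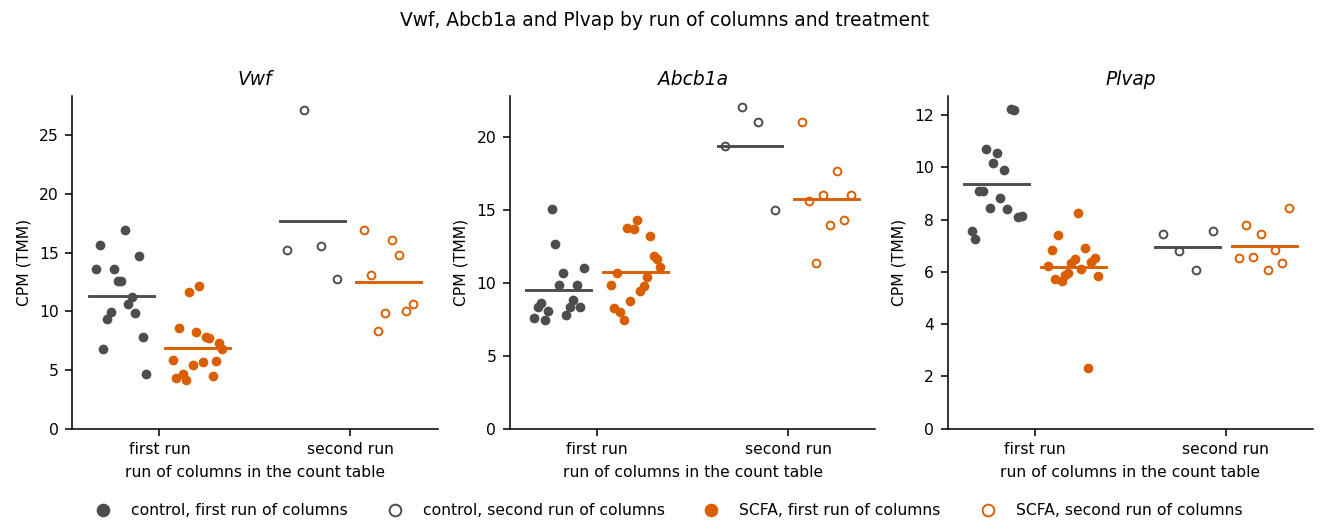
CPM of *Vwf*, *Abcb1a* and *Plvap* by run of columns and treatment, with 1 point per library and the mean as a line. *Vwf* and *Abcb1a* sit higher in the second run. For *Plvap* the means of CTR and SCFA are 9.37 and 6.17 CPM in the first run and 6.97 and 7.00 CPM in the second.

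The main question put to these libraries was whether SCFA changed the retinal transcriptome after laser injury, in each sex and at each time. Averaged over the 6 pairs of groups, *Plvap* and *Vwf* were lower with SCFA, at 0.715-fold and 0.649-fold of CTR, and *Slco1c1* was 1.18-fold of CTR. On the log2 scale these were -0.48 ± 0.08 (SE) for *Plvap* (edgeR adjusted p = 5.78e-05), -0.62 ± 0.12 (SE) for *Vwf* (edgeR adjusted p = 1.95e-04) and 0.24 ± 0.10 (SE) for *Slco1c1* (edgeR adjusted p = 0.076). Thus 3 of the 10 genes were called, where 34.7% of all genes were, a share near the background. The other 7 had mean differences between -0.21 (*Mfsd2a*) and 0.17 (*Cdh5*). The median over the 10 genes was 0.02, against 0.00 over all genes tested, so the set had no common direction. Within single pairs, edgeR called 0 of the 10 genes in males at 3 dpl (0.022% of all genes), 2 in males at 7 dpl (22.2%), 1 in males at 14 dpl (7.13%), 1 in females at 3 dpl (8.11%) and 1 in females at 7 dpl (0.643%). In females at 14 dpl it called 0 of the 10 and 0.0% of all genes, of which 529 had an unadjusted p under 0.05. At an unadjusted p under 0.05 there was 1 of the 10 both in males at 3 dpl (*Vwf*) and in females at 14 dpl (*Cldn5*), and DESeq2 called 0 in either. In this bulk tissue, fewer endothelial cells and less RNA per cell cannot be told apart.

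**Figure D3:**
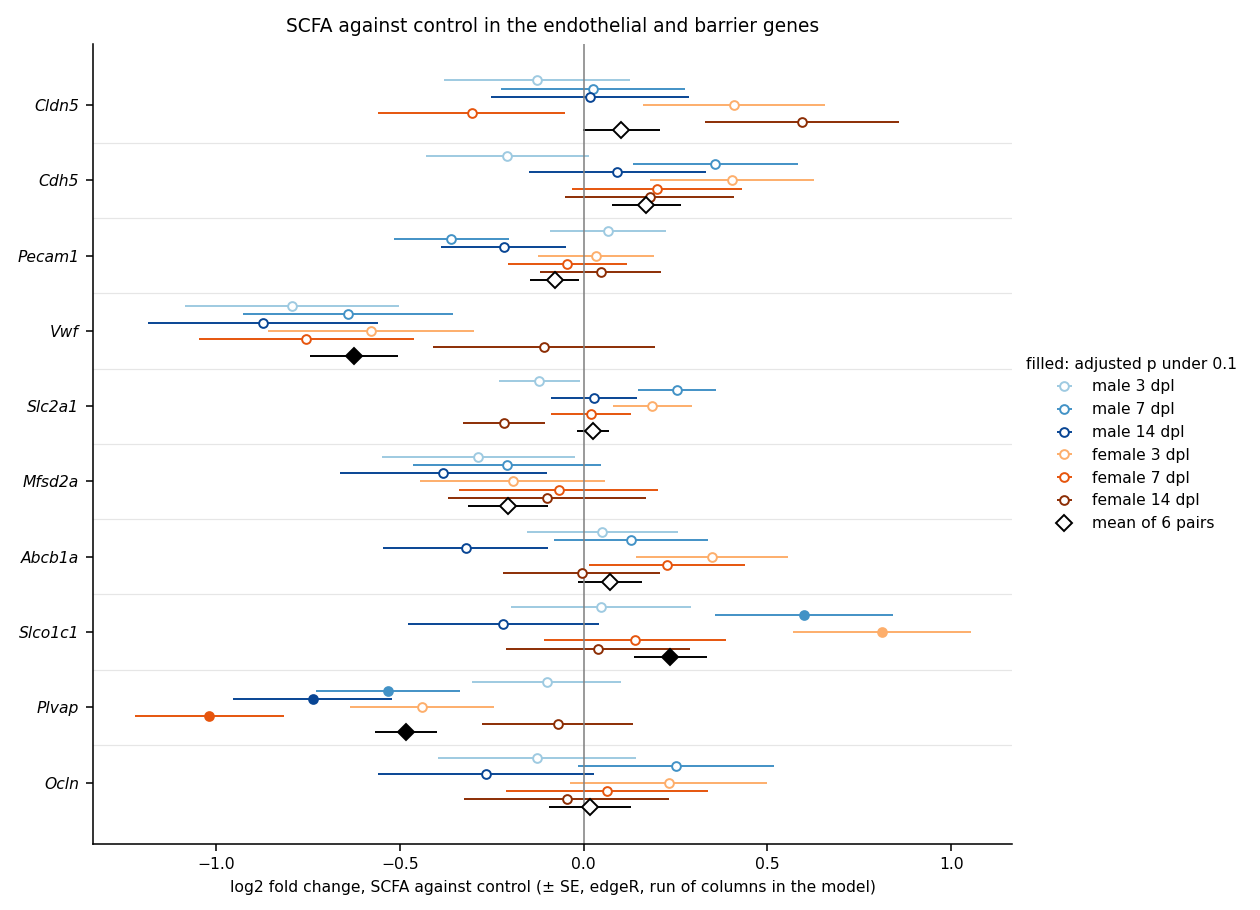
Log2 fold change of SCFA over CTR for each gene in each of the 6 pairs and for their mean, with standard errors; filled symbols mark adjusted p under 0.1. *Vwf*, *Plvap* and *Mfsd2a* lie below 0 in all 6 pairs (not in every alternative: with the first run alone, *Vwf* in females at 14 dpl is at 0.53), and the other 7 genes lie on both sides.

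**Figure D4:**
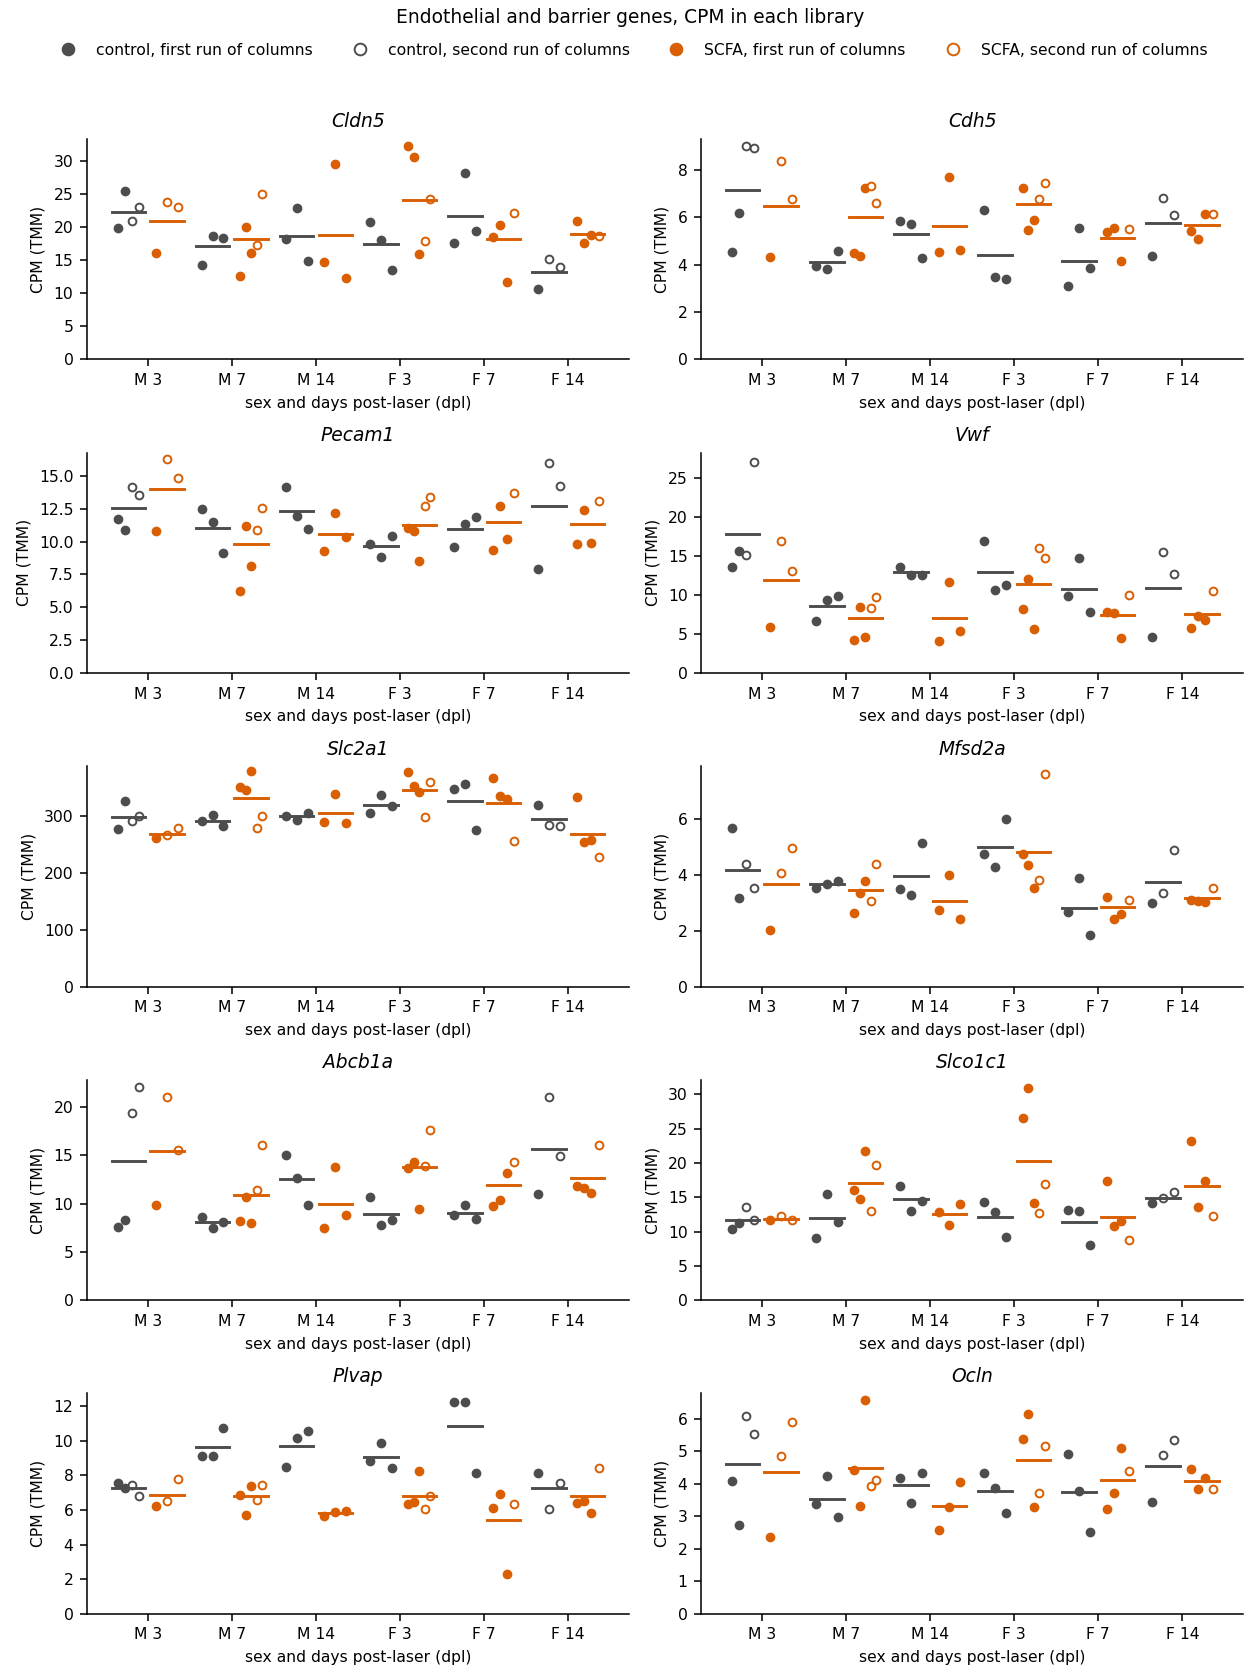
CPM of each gene in every library, by sex, day and treatment, with group means as lines. CTR and SCFA libraries of *Plvap* are apart in males at 7 and 14 dpl and in females at 3 and 7 dpl, while most other panels overlap.

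For *Plvap*, which marks fenestrated and permeable endothelium, male CTR libraries at 7 dpl were at 9.08, 9.09 and 10.7 CPM and SCFA libraries at 6.84, 5.71, 7.4, 6.56 and 7.46. All 5 SCFA libraries were below all 3 CTR libraries, as for 17.8% of all genes in this pair in one direction or the other, with a log2 fold change of -0.53 ± 0.20 (SE, edgeR adjusted p = 0.0582). In males at 14 dpl the CTR libraries were at 8.45, 10.2 and 10.5 and the SCFA libraries at 5.64, 5.88 and 5.95 CPM. These groups did not overlap either, where 33.5% of all genes did not, and differed by -0.74 ± 0.22 (SE) on the log2 scale (edgeR adjusted p = 0.0614). Females at 7 dpl had CTR libraries at 12.2, 12.2 and 8.11 and SCFA libraries at 6.12, 6.92, 2.32 and 6.32 CPM. The SCFA libraries were again all lower, against 7.22% of all genes without overlap, and replicate 3 was the lowest of all 43. The difference of -1.02 ± 0.20 (SE, edgeR adjusted p = 0.0788) lost its call without single libraries, 14 of the 43 in all. It was -0.76 (edgeR adjusted p = 0.366) without that replicate, -0.94 (edgeR adjusted p = 0.476) without the CTR library with Y-linked counts and -0.93 (edgeR adjusted p = 0.186) without CTR replicate 1. In males at 14 dpl the call was lost when CTR replicate 1, 2 or 3 or SCFA replicate 1 or 3 was left out (-0.83 to -0.67), and at 7 dpl when CTR replicate 2 or 3 or SCFA replicate 2 was (-0.57 to -0.45). Without the libraries high in oligodendrocyte markers, which leaves 1 CTR library, the male difference at 7 dpl was -0.46 (edgeR adjusted p = 0.597).

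In females at 3 dpl, CTR libraries were at 8.83, 9.88 and 8.39 and SCFA libraries at 6.34, 6.47, 8.23, 6.07 and 6.82 CPM. The groups did not overlap (7.73% of all genes), but the difference of -0.44 ± 0.20 (SE) was not called (edgeR adjusted p = 0.184). The remaining 2 pairs overlapped. In males at 3 dpl, CTR libraries were at 7.56, 7.24, 7.46 and 6.79 and SCFA libraries at 6.21, 6.52 and 7.8 CPM (-0.10 ± 0.20 SE), and none of the 10 genes was without overlap in that pair, where 8.56% of all genes were. At 14 dpl in females, CTR libraries were at 8.12, 6.06 and 7.55 and SCFA libraries at 6.39, 6.52, 5.83 and 8.43 CPM (-0.07 ± 0.21 SE). These are the 2 pairs whose CTR groups include second-run libraries, and in the 4 pairs with a larger difference every CTR library was of the first run. Within the first run, *Plvap* had lowest, median and highest values of 7.24, 9.08 and 12.2 CPM in CTR (n = 15) and 2.32, 6.27 and 8.23 CPM in SCFA (n = 16). Within the second run the same were 6.06, 7.12 and 7.55 CPM (n = 4) and 6.07, 6.69 and 8.43 CPM (n = 8). A fit of the first run alone gave a mean difference of -0.56 (edgeR adjusted p = 0.00105), and the second run alone could not be fitted for the 6 pairs, so whether the difference holds in both runs was not tested.

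*Vwf* had a log2 fold change below 0 in all 6 pairs, and so had *Plvap* and *Mfsd2a*, while 7.94% of all genes were below 0 in all 6 and 6.55% above; none of the 10 was above 0 in all 6. These signs were not the same in every alternative. *Vwf* was above 0 in females at 14 dpl when only the first run was fitted, as given below, and in males at 7 dpl, at 0.05, with the libraries that the study lists. *Mfsd2a* was above 0 in females at 7 dpl without the run as a term and at 14 dpl in the first run alone, and *Plvap* in females at 14 dpl without CTR replicate 1. The largest of these shifts for *Mfsd2a* were in females at 7 dpl, at 0.35 with the libraries that the study lists and 0.23 without the CTR library with Y-linked counts. Without CTR replicate 2, *Vwf* in females at 14 dpl was at 0.10. In males at 3 dpl, CTR libraries were at 13.6, 15.6, 15.2 and 27.2 CPM and SCFA libraries at 5.88, 16.9 and 13.1. The CTR libraries included the highest *Vwf* of all 43, replicate 4, and the groups overlapped, with a difference of -0.79 ± 0.29 (SE, edgeR adjusted p = 0.318). Males at 7 dpl had CTR libraries at 6.74, 9.38 and 9.9 and SCFA libraries at 4.29, 8.53, 4.63, 8.34 and 9.82 CPM, and again overlapped (-0.64 ± 0.29 SE, edgeR adjusted p = 0.124). Males at 14 dpl, all of the first run, had CTR libraries at 13.6, 12.6 and 12.6 and SCFA libraries at 4.14, 11.6 and 5.42 CPM. There the SCFA libraries were all lower, in a pair where 33.5% of all genes were without overlap in one direction or the other. SCFA replicate 2 was close to the CTR libraries, and the difference was -0.87 ± 0.31 (SE, edgeR adjusted p = 0.105). Without that replicate the difference was called, at -1.43 (edgeR adjusted p = 0.0157), as it was in 8 of the 43 fits that left out 1 library, and at 7 dpl it was called without SCFA replicate 2, at -0.89 (edgeR adjusted p = 0.0304), or CTR replicate 1, at -0.80 (edgeR adjusted p = 0.097).

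Female CTR libraries at 3 dpl were at 16.9, 10.6 and 11.2 CPM and SCFA libraries at 8.2, 12.1, 5.7, 16.1 and 14.8, with overlap (-0.58 ± 0.28 SE, edgeR adjusted p = 0.223). Those of 7 dpl were at 9.87, 14.7 and 7.78 in CTR and 7.81, 7.76, 4.45 and 10.01 in SCFA, overlapping likewise (-0.75 ± 0.29 SE, edgeR adjusted p = 0.205), and the difference was called without CTR replicate 3, at -0.94 (edgeR adjusted p = 0.0745). The pair of 14 dpl shows how the run enters: CTR libraries were at 4.62, 15.6 and 12.7 CPM and SCFA libraries at 5.77, 7.28, 6.77 and 10.6, where CTR replicates 2 and 3 and SCFA replicate 4 are of the second run. Within the first run CTR was lower than all 3 SCFA libraries, within the second run the 2 CTR libraries were higher than the SCFA library, and with the run as a term the difference was -0.11 ± 0.30 (SE, edgeR adjusted p = 1). A fit of the first run alone gave 0.53 (edgeR adjusted p = 0.922) for this pair, the opposite direction. With only the libraries that the study lists for this pair, CTR all of the second run and SCFA all of the first, the difference was -1.08 (edgeR adjusted p = 0.0536), and treatment and run cannot be told apart there. In the main fit no single pair thus passed the threshold for *Vwf*, and the call rests on the mean of the 6. This mean stayed called within the first run at -0.58 (edgeR adjusted p = 0.0105) and without any 1 of the 43 libraries (-0.72 to -0.58). In males at 14 dpl *Vwf* was called by DESeq2 (-0.86, adjusted p = 0.0673), with 10 counts in every library and with the replicate block. There it was also called without the filter, without libraries high in pigment epithelium markers and with the libraries the study lists. It was not called there in the first run alone or without the run term. In males at 7 dpl it was called with the replicate block and without the filter. Platelets also hold *Vwf*. Of 5 platelet genes 3 passed the filter, *Pf4*, *Itga2b* and *Gp1ba*, with medians of only 0.47, 2.87 and 2.37 CPM. In the mean of the 6 pairs 0 of them were called, where 34.7% of all genes were, and their median difference was -0.08. Genes so few and low cannot show the part of platelets, which was not tested.

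Set against *Cdh5* within the same library, *Vwf* was lower with SCFA in 6 of 6 pairs, by differences of log2 ratio between -1.08 and -0.40, and *Plvap* in 5 of 6, between -1.43 and 0.05. Against *Cldn5*, *Vwf* was lower in 6 of 6 (-0.95 to -0.26) and *Plvap* in 5 of 6 (-0.85 to 0.01). The groups were without overlap in 3 pairs for each gene against *Cdh5* and in 1 pair for each against *Cldn5*. How often ratios of other genes are without overlap was not counted. For the levels of single genes it was from 4.01% of all genes (females, 14 dpl) to 33.5% (males, 14 dpl). These ratios carry no term for the run, between which *Cdh5* differed, and *Cdh5* itself was above 0 with SCFA in 5 of 6 pairs. Within the first run, *Vwf* was lower in 5 of 6 pairs against *Cdh5* (-1.16 to 0.17) and in 6 of 6 against *Cldn5* (-1.15 to -0.31), and *Plvap* in 5 of 6 against either (-1.51 to 0.04 and -1.23 to 0.23). The ratios were chosen after the values had been seen and are given as a description.

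The highest values of *Slco1c1*, whose promoter is shown above, were in females given SCFA at 3 dpl. CTR libraries were at 14.3, 12.8 and 9.18 CPM and SCFA libraries at 26.5, 31, 14.2, 12.7 and 17. SCFA replicates 1 and 2 were above all other libraries of the study, and replicate 5 was above the CTR libraries. Replicates 3 and 4 lay within the CTR range, and the difference was 0.81 ± 0.24 (SE, edgeR adjusted p = 0.0517). The TMM factor of SCFA replicate 2 was 0.703, against 0.939 to 1.10 in all other libraries of the study. A low factor raises every CPM of its library, so the height of that value depends on the scaling. Pigment epithelium markers in these SCFA libraries summed to 2109.6, 3121, 1861, 749 and 1053 CPM, in replicate order, against 1139.9, 993 and 1054 CPM in CTR. In this pair, in which 8.11% of all genes were called, 6 of 9 pigment epithelium genes and 2 of 6 Müller glia genes rose, *Rlbp1* among both. So did 2 of 5 melanocyte genes, 2 of 5 fibroblast genes, 2 of 13 pericyte and smooth muscle genes and 1 of 5 oligodendrocyte genes. No gene of these lists fell. Without the 5 libraries high in pigment epithelium markers, a choice made after seeing the data, the *Slco1c1* difference was 0.38 (edgeR adjusted p = 1). That left SCFA replicates 4 and 5, both of the second run, against CTR libraries all of the first. Within this pair treatment and run then cannot be told apart, and the run term rests on other groups. The call was also lost when SCFA replicate 1 or 2 or CTR replicate 2 or 3 was left out (0.59 to 0.83).

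Males at 7 dpl had CTR libraries at 9.14, 15.4 and 11.4 CPM and SCFA libraries at 16.1, 14.8, 21.8, 13 and 19.6. SCFA replicates 3 and 5 were highest and the groups overlapped (0.60 ± 0.24 SE, edgeR adjusted p = 0.0884). Pigment epithelium markers summed to 1589, 1123, 1764, 791 and 1245 CPM in SCFA and 1049, 1276 and 1202 in CTR libraries. *Rlbp1* was the only gene of the 9 called there, and without it the sums were 433, 541, 458, 312 and 613 CPM in SCFA and 622, 735 and 632 in CTR libraries. In this pair 3 of 6 Müller glia genes, *Rlbp1* among them, rose, and 2 of 5 melanocyte genes fell (22.2% of all genes called). Without the same 5 libraries, 2 of which are in this pair, the difference was 0.47 (edgeR adjusted p = 0.381). It was also no longer called when SCFA replicate 1, 3 or 5 or CTR replicate 1 or 3 was left out (0.44 to 0.65). The other 4 pairs had differences between -0.22 and 0.14. Over all 43 libraries, after the mean of each run was subtracted, *Slco1c1* had a Pearson correlation of 0.614 with the mean log2 level of the pigment epithelium list and 0.731 with that of the Müller glia list. Both are descriptions over libraries that share their RNA input and scaling. The mean over the 6 pairs was not called without those 5 libraries, at 0.16 (edgeR adjusted p = 0.289), without the run as a term, at 0.22 (edgeR adjusted p = 0.152), or in 14 of the 43 fits that left out 1 library.

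**Figure D5:**
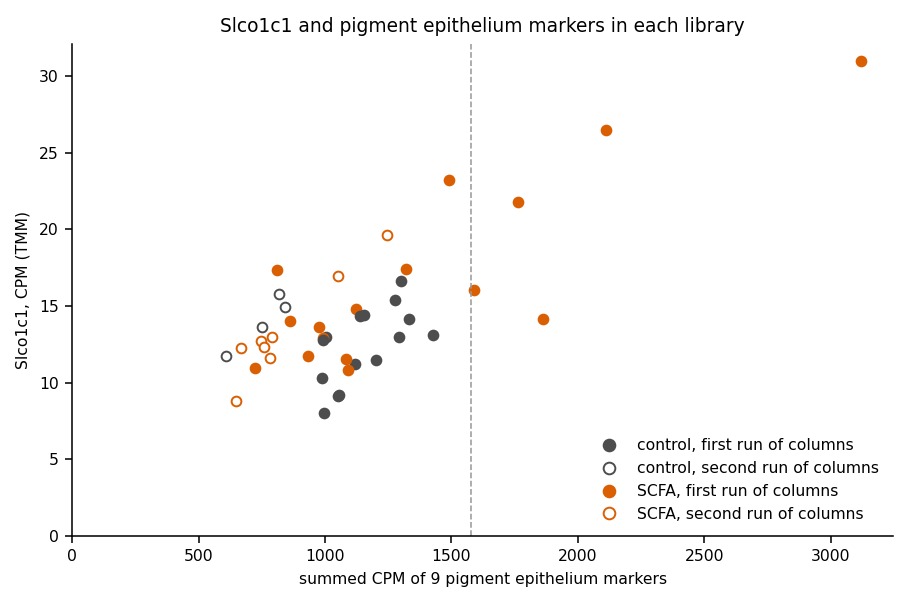
*Slco1c1* CPM against the summed CPM of 9 genes listed for pigment epithelium, with 1 point per library, by treatment and run. The sums include *Rlbp1*, also a Müller glia gene, and *Trpm1*. The libraries with the highest *Slco1c1*, at 26.5 and 31 CPM, are also high in pigment epithelium markers, at 2110 and 3121 CPM.

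Among the junction genes, *Cldn5* in females at 14 dpl was at 10.6, 15.1 and 13.9 CPM in CTR and 20.8, 17.6, 18.7 and 18.6 in SCFA libraries. All SCFA libraries were higher, the only gene of the 10 with that pattern in any pair and as for 4.01% of all genes here without overlap, but the difference of 0.59 ± 0.27 (SE) was not called (edgeR adjusted p = 1). In the other pairs *Cldn5* differed by -0.30 (females, 7 dpl) to 0.41 (females, 3 dpl). *Cdh5* ranged from 3.12 to 9.02 CPM over all libraries, and its log2 fold change was above 0 in 5 pairs and -0.21 in males at 3 dpl, with a mean of 0.17 ± 0.09 (SE, edgeR adjusted p = 0.175). *Pecam1*, at 6.2 to 16.3 CPM, came closest to a call in males at 7 dpl, where CTR libraries were at 12.5, 11.5 and 9.16 CPM and SCFA libraries at 6.2, 11.2, 8.16, 10.8 and 12.6 (-0.36 ± 0.16 SE, edgeR adjusted p = 0.113). It was called with the replicate block, without SCFA replicate 2, at -0.50 (edgeR adjusted p = 0.0227), and without CTR replicate 3, at -0.48 (edgeR adjusted p = 0.0859), and it was above 0, at 0.07, with the libraries that the study lists. For *Ocln*, at 2.35 to 6.57 CPM, the 6 differences lay between -0.27 and 0.25. With all libraries, none of these 4 genes was called in any pair in the fit with terms for group and run alone.

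Of the carriers, *Slc2a1* in males at 7 dpl was at 290.4, 301 and 281 CPM in CTR and 351, 345, 379, 278 and 301 in SCFA libraries. SCFA replicates 1 to 3, of the first run, were above all CTR libraries and replicates 4 and 5, of the second, were not, with a difference of 0.25 ± 0.11 (SE) just outside the threshold (edgeR adjusted p = 0.102). It was called by DESeq2 (0.27, adjusted p = 0.0483), with RLE size factors, with 10 counts in every library, with the replicate block, with the first run alone (0.30) and in 10 of the 43 fits that left out 1 library. In its other pairs *Slc2a1* differed by -0.22 to 0.19. *Mfsd2a*, at 1.86 to 7.61 CPM, was below 0 in all 6 pairs, by -0.38 to -0.07, with a mean of -0.21 ± 0.11 (SE) that was not called (edgeR adjusted p = 0.159). Within the first run alone this mean was -0.32 (edgeR adjusted p = 0.0744) and was called. *Abcb1a*, at 7.46 to 22.1 CPM, differed by 0.68 between runs, and its 6 differences with SCFA lay between -0.32 and 0.35. With only the libraries that the study lists it was called in opposite directions, at 0.66 (edgeR adjusted p = 0.0448) in males at 7 dpl and -0.63 (edgeR adjusted p = 0.0704) in females at 14 dpl. Its paralog *Abcb1b* had a median of 1.93 CPM, and how reads shared by these genes were assigned is uncertain.

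Males and females were compared within CTR at each day. None of the 10 genes was called by edgeR, where 0.0495%, 0.0275% and 4.65% of all genes were at 3, 7 and 14 dpl, and 2.31% in the mean over the 6 pairs of both treatments. At an unadjusted p under 0.05 there were 0, 0, 3 and 0 of the 10, and DESeq2 called 0, 0, 1 (*Vwf*) and 0. At 14 dpl, male CTR libraries exceeded female ones by 0.90 ± 0.33 (SE) for *Vwf* (edgeR adjusted p = 0.136), 0.61 ± 0.29 (SE) for *Cldn5* and 0.47 ± 0.23 (SE) for *Plvap*. Without the library with Y-linked counts, edgeR again called 0 of the 10 at 7 dpl. Female CTR at 14 dpl holds 1 library of the first and 2 of the second run, male CTR 3 of the first.

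Across time, averaged over sexes and treatments, edgeR again called none of the 10, where 0.0055% of all genes were called for 7 against 3 dpl, 0.0604% for 14 against 7 dpl and 2.37% for 14 against 3 dpl. DESeq2 also called 0 in each, and 2, 1 and 3 of the 10 had an unadjusted p under 0.05. *Vwf* was -0.44 ± 0.15 (SE) at 7 relative to 3 dpl (edgeR adjusted p = 0.605) and -0.37 ± 0.15 (SE) at 14 relative to 3 dpl (edgeR adjusted p = 0.216). *Mfsd2a* was -0.39 ± 0.13 (SE) at 7 relative to 3 dpl, and *Abcb1a* 0.30 ± 0.11 (SE) at 14 relative to 7 dpl.

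Whether the sexes responded differently to SCFA was tested as an interaction at each day. None of the 10 genes was called, nor any other gene, with 0.0% of all genes at 3 dpl, 0.0% at 7 dpl and 0.0% at 14 dpl by edgeR. Unadjusted p-values were under 0.05 for 2, 0 and 1 of the 10 and for 2296, 1332 and 1822 of all genes, and DESeq2 called 0 of the 10 at each day. The male response minus the female response was -0.76 ± 0.34 (SE) for *Slco1c1* at 3 dpl (edgeR adjusted p = 0.352) and -0.67 ± 0.30 (SE) for *Plvap* at 14 dpl (edgeR adjusted p = 0.486). The calls of *Slco1c1* in females and not males at 3 dpl, and of *Plvap* in males and not females at 14 dpl, were therefore not shown to differ between the sexes.

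Genes of lists named for vessels and barrier were counted for the mean of the 6 pairs, beside the 34.7% of all genes called and their median of 0.00. Median levels in these lists differed widely, with *Tie1* at 4.97 CPM, *Tjp1* at 119, *Slc16a1* at 281 and *Slc6a6* at 1053. The counts do not tell which cells of the retina these genes come from. Of 22 genes of endothelial identity, 1 rose and 5 fell with SCFA (median -0.06). The 3 with the smallest adjusted p were *Ptprb*, the endothelial phosphatase VE-PTP, at -0.28 ± 0.09 (SE, edgeR adjusted p = 0.0147), *Egfl7*, a protein secreted by endothelium, at -0.23 ± 0.08 (SE), and *Nos3*, the endothelial nitric oxide synthase, at -0.26 ± 0.10 (SE). Of 14 junction genes 4 rose and 2 fell (median 0.01). *Ctnnd1*, p120-catenin, was at 0.38 ± 0.07 (SE, edgeR adjusted p = 1.50e-04), *Tjp1*, the scaffold ZO-1, at 0.23 ± 0.06 (SE), and *Cgn*, cingulin, at -0.27 ± 0.09 (SE). Norrin and β-catenin signalling, which maintains the barrier of retinal endothelium, had 2 of 15 genes up and 2 down, with *Apcdd1*, an inhibitor of Wnt signals, at -0.39 ± 0.12 (SE) and *Reck*, a coreceptor of Wnt7 ligands, at 0.20 ± 0.07 (SE). Its receptor *Lrp6* was at 0.12 ± 0.05 (SE, edgeR adjusted p = 0.073).

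Of 16 genes listed as transporters of barrier endothelium 2 rose and 4 fell (median -0.10), with the same limit on their source. The monocarboxylate carrier *Slc16a1*, which also carries short-chain fatty acids, was at 0.26 ± 0.05 (SE, edgeR adjusted p = 1.51e-04), the insulin receptor *Insr* at 0.18 ± 0.05 (SE) and the amino acid carrier *Slc38a5* at -0.997 ± 0.30 (SE). Of 12 genes of activated or permeable endothelium 10 passed the filter and 1 rose, *Cav1* (caveolin-1), at 0.23 ± 0.07 (SE); the selectins *Sele* and *Selp* did not pass and were at 0 in 39 and 35 libraries. Among 13 pericyte and smooth muscle genes 1 rose and 4 fell, with *Kcnj8*, a potassium channel of pericytes, at -0.51 ± 0.14 (SE), *Rgs5* at 0.20 ± 0.06 (SE) and *Myh11*, smooth muscle myosin, at -0.37 ± 0.13 (SE). Of the markers of other cell types, 1 of 9 pigment epithelium genes, 3 of 6 Müller glia genes (*Rlbp1* in both lists) and 2 of 5 fibroblast genes rose, 1 of 6 leukocyte and microglia genes and 1 of 5 erythrocyte genes fell, and 0 of 5 melanocyte, 0 of 5 rod and 0 of 5 oligodendrocyte genes were called. Without the 5 libraries high in pigment epithelium markers the mean was -0.52 (edgeR adjusted p = 3.65e-04) for *Plvap* and -0.56 (edgeR adjusted p = 0.00279) for *Vwf*. Without the 5 libraries high in oligodendrocyte markers they were -0.49 and -0.59. Leaving out libraries does not measure the part of these cell types in the differences of *Plvap* and *Vwf*, which was not tested.

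The 10 genes did not vary as 1 block over the 43 libraries. After the mean of each run was subtracted, the highest Pearson correlation of log2(CPM + 1) between any pair of them was 0.584, for *Slco1c1* and *Ocln*, and *Plvap* was at -0.17 with *Cdh5* and -0.29 with *Abcb1a*. Among all genes tested, those close to *Plvap* included *Mapkapk2* (r = 0.798) and *Armc5* (0.797), and those closest to *Vwf* were *Dpp3* (0.861), *Fn1* (0.838) and *Gpc1* (0.823). *Slco1c1* was closest to *Rdh10* (0.826), *Arf4* (0.816) and *Synpr* (0.795), *Cdh5* to *Nrarp* (0.735), *Mfsd2a* to *Id1* (0.694), *Cldn5* to *Spr* (0.716), *Slc2a1* to *Nudt4* (0.761), *Abcb1a* to *Dag1* (0.731), *Pecam1* to *Nbas* (0.738) and *Ocln* to *Lipa* (0.736). None of the closest genes was 1 of the 10. These correlations are descriptions over libraries that share depth scaling and treatment groups.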

How the data were processed

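Total retinal RNA was sequenced at Novogene with paired reads of 150 bases. The authors deposited raw counts of reads per gene, without normalization. The submitters' processing notes name mm10 and DESeq2. The aligner, annotation and strand setting are not given in the sources used here. Of 54532 genes, 54409 were named by identifier in GENCODE M21 (GRCm38) and 123 were not. Every column matched 1 sample title; groups came from titles.

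Low genes were removed by filterByExpr on the 12 groups (18197 remained) and libraries were scaled by TMM. All 43 libraries entered 1 quasi-likelihood fit in edgeR 4.0.16 (R 4.3.3) with a term for each group and for the run of columns. Contrasts were SCFA against CTR in 6 pairs and their mean, males against females, days, and interactions. Genes with a Benjamini-Hochberg adjusted p under 0.1 over all genes tested are called. SE is the log2 fold change divided by the root of F. CPM per kb divides by the longest transcript. Correlations used log2(CPM + 1), centred on each run. The functions were tested on simulated data that held no difference between the runs, so the run term was not examined there.

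The 10 genes and the lists were chosen with earlier results of these data known. Named were all 10 genes, from other lists up to 3 called genes with the smallest adjusted p, and the genes closest in correlation, of which the text gives 3 for *Vwf* and *Slco1c1*, 2 for *Plvap* (another is not reported here) and 1 for the rest. Alternatives were DESeq2 1.42.0, RLE size factors, no filter, 10 counts in every library, a robust fit, no run term, the first run only, the replicate number as a block, an adjusted p under 0.05, the study's DEG rule (a change of over 1 on the log2 scale in either direction as well as an adjusted p under 0.1), the libraries the study lists, and each library left out in turn. Fits without libraries high in pigment epithelium or oligodendrocyte markers were chosen after seeing the data. Each library is a pool of 2 retinas from different mice. Whether the eyes of a mouse went into different libraries is not given in the sources used here. No pair of replicates agreed within sampling noise. Figures used Python 3.11.15 with matplotlib 3.10.9.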

Additional observations from a re-analysis of the deposited data

Results flagged for a closer look

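In groups of 4 or 5 libraries, 50 combinations of gene and group were checked for a library far from the rest (Dixon's test), which chance gives in about 1 in 20, and 4 were found. *Vwf* in male CTR at 3 dpl was at 27.2 CPM in replicate 4, with the nearest library at 15.6. *Abcb1a* in female SCFA at 14 dpl was at 16.1 CPM in replicate 4, with the nearest at 11.9, and *Mfsd2a* in the same library was at 3.53 CPM, with the nearest at 3.12. These libraries are of the second run, and in the female SCFA group at 14 dpl replicate 4 is the only one of that run. *Cdh5* in female SCFA at 7 dpl was at 4.14 CPM in replicate 3, of the first run, with the nearest at 5.38; this is also the library with the lowest *Plvap*.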

How the results depend on the processing

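No alternative reversed a called difference of the 10 genes. The mean differences of *Plvap* and *Vwf* over the 6 pairs stayed called in every alternative run except the study's DEG rule, which asks for a larger fold. Counts of the 10 genes called that moved by over 1.5 times are given for each comparison. For males at 7 dpl (2 called) the count was 0 at adjusted p under 0.05, under the DEG rule, without the run term and without libraries high in pigment epithelium or in oligodendrocyte markers, 1 in the first run only and 5 with the replicate block. It was 3 with RLE, 10 counts in every library and DESeq2, by *Slc2a1*. Without the filter *Vwf* was called in place of *Plvap*, and with the libraries the study lists *Abcb1a* in place of *Slco1c1*. For males at 14 dpl (1) it was 0 at adjusted p under 0.05, under the DEG rule, without the run term and in the first run only, and 2 without the filter, with 10 counts in every library, with the replicate block, in DESeq2, without libraries high in pigment epithelium markers and with the libraries the study lists. For females at 3 dpl (1) it was 0 at adjusted p under 0.05, under the DEG rule, without the run term and without libraries high in pigment epithelium markers, and 2 without the filter. For females at 7 dpl (1) it was 0 at adjusted p under 0.05, without the run term, in DESeq2 (which gave *Plvap* no adjusted p), without libraries high in oligodendrocyte markers and with the libraries the study lists, and 2 without the filter. For females at 14 dpl (0) it was 2 with the libraries the study lists. The mean of the 6 pairs (3) fell to 0 under the DEG rule. It was 2 (without *Slco1c1*) at adjusted p under 0.05, without the run term and without libraries high in pigment epithelium markers, and 4 (with *Mfsd2a*) in the first run only. Without the filter, counts of 0 became 1 for males at 3 dpl, 7 against 3 dpl, 14 against 7 dpl and the interaction at 3 dpl, and 2 for the sexes in CTR at 14 dpl and 14 against 3 dpl; DESeq2 gave 1 for the sexes at 14 dpl. The cause of these shifts was not tested. Leaving out each library in turn gave 1 to 4 for males at 7 dpl, 0 to 2 for males at 14 dpl and for females at 3 and 7 dpl, 2 to 4 for the mean, 0 to 1 for the sexes at 14 dpl and for 14 against 3 dpl, and 0 elsewhere. Same-numbered CTR and SCFA libraries deviated together little on average (mean r = 0.0244 over 18 pairs, 6 over 0.1, with 7 of 18 closest to their own number). Single pairs ran from -0.28 to 0.26, so a pairing by replicate number was not shown, and these values cannot exclude it. Depth limits *Mfsd2a*, *Ocln* and *Plvap* most, at 28 to 38 counts in their lowest libraries.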
